A study of Homo sapiens with 12 samples.

Results

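The subject is a set of 10 heat shock chaperone genes in 22Rv1 cells, an established human prostate carcinoma line, treated with a small molecule. By the title of the series it inhibits ONECUT2, a homeodomain transcription factor. The genes are HSPA6, HSPA8, HSPA13, HSPH1, HSPB1, HSPB8, DNAJB1, DNAJB4, HSP90AA1 and BAG3, with all probe sets that the platform annotation gives them. They were chosen by name from 19775 genes named on the array, with earlier results of these data known. Their counts beside those of all genes therefore describe the set and do not test it. The 12 Affymetrix U133 Plus 2.0 arrays comprised cells given vehicle and cells given the compound for 4 h, 6 h or 16 h, with 3 arrays in each group, all grown in medium with serum. The labels give no dose, no treatment time for the vehicle arrays, and do not say whether the 3 arrays of a group came from separate cultures. The p-values therefore reflect array-to-array spread alone, part or all of which may be technical. The titles of the 16 h arrays lack a code element that the other 9 titles carry, and what it stands for cannot be told apart from treatment time.

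Heat shock chaperones bind unfolded proteins and return them to a folded state or pass them on for degradation. HSP70 proteins such as HSPA6 and HSPA8 hold a client in a cycle driven by ATP. J-domain proteins such as DNAJB1 and DNAJB4 deliver the client and start ATP hydrolysis, and nucleotide exchange factors such as HSPH1 and BAG3 release it. HSP90AA1 is the stress-inducible HSP90 of the cytosol and is known as a chaperone of the androgen receptor in prostate cells. HSPB1 and HSPB8 are small heat shock proteins that hold aggregating proteins without ATP, and HSPB8 works with BAG3 in the removal of damaged proteins by autophagy. HSF1 is the main transcription factor of the heat shock response and binds heat shock elements, repeats of a short unit in alternating orientation. HSPA13 is an HSP70 without the substrate-binding part. It is known as a microsome-associated protein and so is not covered by the name cytosolic chaperone.

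The DNA just before the transcription start is shown for 6 members, as examples with and without heat shock element matches. Whether such matches bear on the response was not tested. The bases are the 250 before a RefSeq start on GRCh38.p14, 5′ to 3′ on the gene's own strand, with heat shock element matches in capitals. The windows lie at chr1:161524290-161524539 (plus strand) for HSPA6, chr12:119178681-119178930 (plus strand) for HSPB8, chr1:78004689-78004938 (plus strand) for DNAJB4, chr21:14383147-14383396 (minus strand) for HSPA13, chr11:123062137-123062386 (minus strand) for HSPA8 and chr14:102087045-102087294 (minus strand) for HSP90AA1. DNAJB4 and HSP90AA1 each have another annotated start, whose window held no match.
HSPA6: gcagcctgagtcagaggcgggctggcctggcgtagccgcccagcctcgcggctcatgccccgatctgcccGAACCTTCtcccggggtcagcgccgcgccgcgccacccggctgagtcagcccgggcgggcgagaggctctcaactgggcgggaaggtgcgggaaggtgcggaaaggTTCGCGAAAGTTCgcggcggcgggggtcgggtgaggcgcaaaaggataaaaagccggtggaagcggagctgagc
HSPB8: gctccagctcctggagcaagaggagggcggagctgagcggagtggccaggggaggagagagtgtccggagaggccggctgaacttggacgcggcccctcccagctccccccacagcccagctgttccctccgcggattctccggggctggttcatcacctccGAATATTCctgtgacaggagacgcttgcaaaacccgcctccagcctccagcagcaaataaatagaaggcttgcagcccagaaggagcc
DNAJB4: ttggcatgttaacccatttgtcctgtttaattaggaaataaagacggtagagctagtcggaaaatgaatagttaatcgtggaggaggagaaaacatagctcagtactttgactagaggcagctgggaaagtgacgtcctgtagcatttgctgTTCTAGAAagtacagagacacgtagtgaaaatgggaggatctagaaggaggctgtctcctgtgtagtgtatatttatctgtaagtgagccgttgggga
HSPA13: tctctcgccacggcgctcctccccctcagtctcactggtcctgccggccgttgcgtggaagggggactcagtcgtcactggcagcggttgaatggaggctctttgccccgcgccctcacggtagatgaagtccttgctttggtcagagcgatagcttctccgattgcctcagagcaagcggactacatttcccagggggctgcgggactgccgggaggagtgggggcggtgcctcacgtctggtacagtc
HSPA8: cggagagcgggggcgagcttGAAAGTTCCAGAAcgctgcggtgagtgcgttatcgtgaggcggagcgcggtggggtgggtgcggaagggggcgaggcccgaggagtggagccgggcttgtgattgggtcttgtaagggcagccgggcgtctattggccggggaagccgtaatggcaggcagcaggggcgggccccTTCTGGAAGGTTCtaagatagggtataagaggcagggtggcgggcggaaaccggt
HSP90AA1: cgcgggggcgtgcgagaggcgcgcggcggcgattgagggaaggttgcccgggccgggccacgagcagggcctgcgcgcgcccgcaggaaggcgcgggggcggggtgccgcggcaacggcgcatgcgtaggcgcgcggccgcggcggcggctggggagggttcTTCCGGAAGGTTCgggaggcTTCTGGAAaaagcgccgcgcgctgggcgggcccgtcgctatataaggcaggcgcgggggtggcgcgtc

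All 10 members had at least 1 start in the RefSeq table, with 14 windows in all. The letters GAANNTTCNNGAA are a heat shock element of 3 units, searched on both strands. They occurred in HSPA6, HSPA8 and HSP90AA1, against 0.557% of the 27305 genes with such windows and 0.441% of all 35116 windows of the same length. The shorter form GAANNTTC reads the same on both strands and lies within the longer one. It occurred in HSPA6, HSPA8, HSPB1, HSPB8, DNAJB1 and HSP90AA1, and in 7.05% of these genes and 5.78% of all windows. The other short form, TTCNNGAA, also lies within the longer one. It occurred in HSPA6, HSPA8, DNAJB4 and HSP90AA1, and in 8.12% of these genes and 6.62% of all windows. Thus 7 members held some match, and HSPA13, HSPH1 and BAG3 held none within 250 bases. A match is a run of letters and not a measured binding site.

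The annotation gave the 10 genes 23 probe sets, of which 19 carried 1 symbol. The other 4 are annotated jointly to HSPA8 and to SNORD14C and SNORD14D, small nucleolar RNA genes, so HSPA8 has no probe set of its own here and its 4 probe sets are described by identifier. Signals are log2 values, and 1 unit is a doubling. A gene was represented by its brightest probe set, the one with the highest mean over the 12 arrays, and was tested by limma over 12635 genes with Benjamini-Hochberg adjustment. A gene is said to have risen or fallen where the adjusted p was below 0.05. All 9 members with a probe set of their own passed the filter on dim genes, a mean log2 signal of 2.11. HSPA6 passed only through its 16 h arrays, since its vehicle, 4 h and 6 h means were 1.98, 2.09 and 2.02, so its difference at 16 h is partly fixed by the filter.

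At 16 h the heat shock genes divided. On the brightest probe sets DNAJB4, HSPB8 and HSPA13 were each more than doubled, and HSPA6 was above background where vehicle arrays were not. BAG3 and HSPH1 rose by less on theirs, DNAJB1 fell, and HSPB1 and HSP90AA1 did not pass. Another probe set of DNAJB1 rose, and another of HSPH1 and some of HSP90AA1 fell. By limma with Benjamini-Hochberg adjustment 6 of 9 members rose and 1 fell, while 42.8% of all 12635 genes changed, 26% upward and 16.8% downward. Without HSPA6, 5 of the other 8 rose. The median log2 change of the 9 members, with HSPA6 counted, was 0.43, against 0.046 over all tested genes. The arrays of the 16 h and vehicle groups did not overlap for 8 of the 9 members, HSPA6 among them. The same held for 51.5% of all genes. HSPA6 was admitted by its 16 h arrays and the members were chosen with earlier results known, so these values only describe the set. A change in the share of cells with a transcript and a change in its amount per cell cannot be told apart on such arrays.

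**Figure D1:**
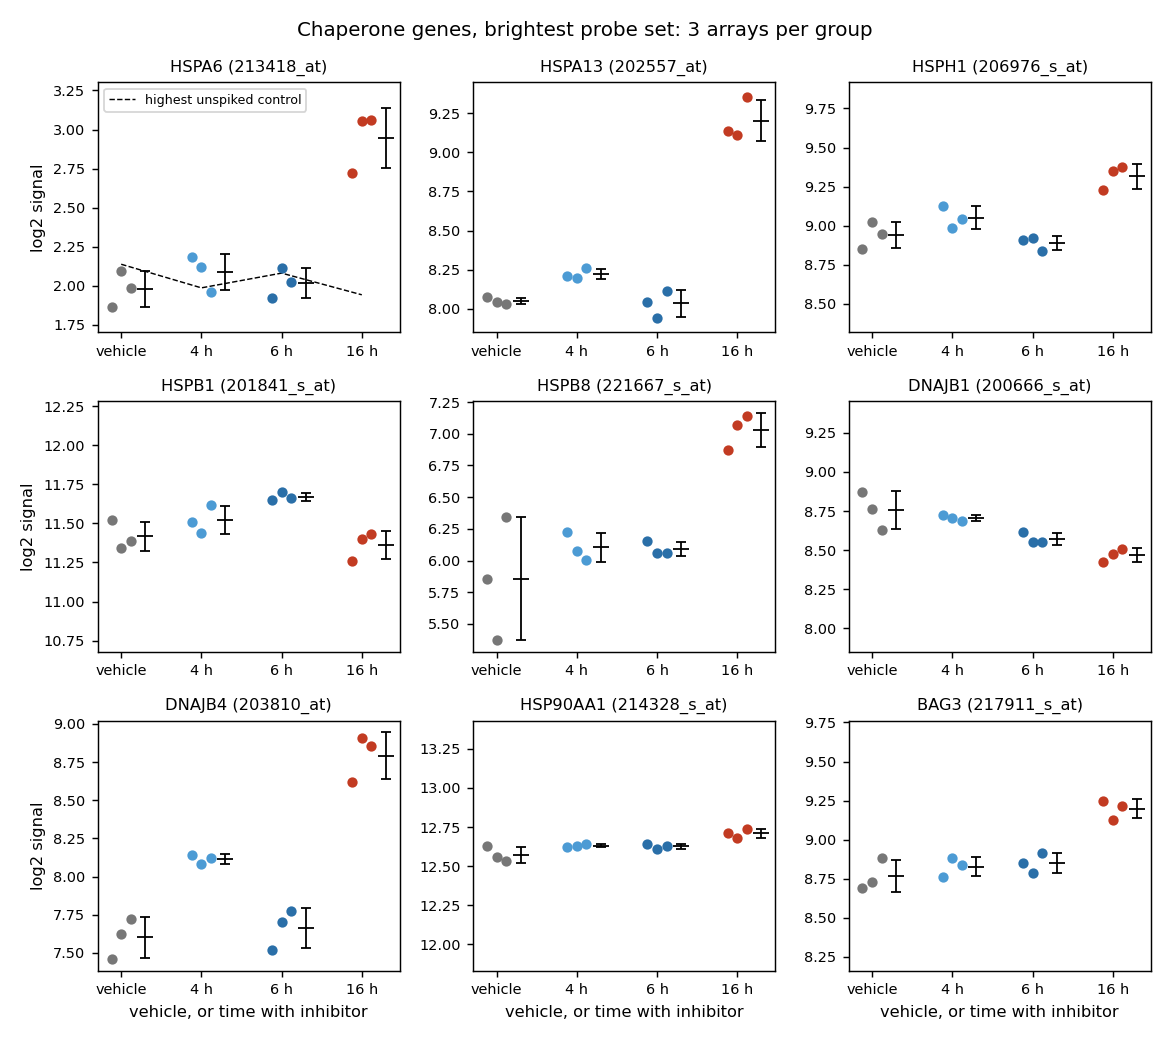
Log2 signal (vertical axis) of the brightest probe set of 9 heat shock genes on 3 vehicle, 4 h, 6 h and 16 h arrays each (horizontal axis), with points for arrays and bars for the mean and SD of 3 arrays. The 16 h arrays lay outside all other arrays for each gene but HSPB1, and HSPA6 was admitted to the test by its 16 h arrays. Over all genes, the 16 h and vehicle arrays did not overlap for 51.5%. The dashed line in the HSPA6 panel is the highest unspiked bacterial control, averaged over the 3 arrays of each group.

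The HSP70 genes differed most in how they were measured. HSPA6 encodes a strictly inducible HSP70 that most unstressed cells lack. Its probe set 213418_at read 1.86, 2.10 and 1.98 on vehicle arrays, 2.19, 2.12 and 1.96 at 4 h, 1.92, 2.11 and 2.03 at 6 h and 2.72, 3.05 and 3.06 at 16 h. All 16 h arrays were above all others, and no vehicle array exceeded the highest unspiked bacterial control on the same array. That control was exceeded on all arrays at 4 h and 16 h and on 2 of the 6 h arrays. The 16 h signal was therefore at least 1.75-fold that on vehicle arrays, given as a description with no p because the 16 h arrays admitted HSPA6 to the test. The other HSPA6 probe set, 117_at, lay below that control on all 12 arrays, at 1.73, 1.84 and 1.74 on 16 h arrays against 1.43, 1.53 and 1.57 on vehicle arrays, and was not tested.

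HSPA13, an HSP70 that lacks the substrate-binding part of its relatives, read 8.07, 8.04 and 8.03 on vehicle arrays, 8.21, 8.19 and 8.26 at 4 h, 8.05, 7.94 and 8.11 at 6 h and 9.14, 9.11 and 9.35 at 16 h on probe set 202557_at. The 16 h arrays were above every other array. The 4 h arrays also lay above all vehicle and 6 h arrays, but that difference of 0.17 ± 0.07 SE did not pass (adjusted p = 0.428). At 16 h HSPA13 rose 2.22-fold (log2 change 1.15 ± 0.07 SE, adjusted p = 3.6e-07). Its second probe set, 202558_s_at, rose by 1.55 ± 0.13 SE (adjusted p = 3.36e-06 over 23839 probe sets).

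HSPA8 encodes the HSP70 that cells make without stress. The 4 probe sets shared by HSPA8, SNORD14C and SNORD14D were tested in the fit over 23839 probe sets, in which 41.5% changed at 16 h. Of these, 210338_s_at fell, with 11.67, 11.66 and 11.65 on 16 h arrays, against a mean of 11.98 and a lowest value of 11.95 on vehicle arrays (log2 change -0.32 ± 0.06 SE, adjusted p = 0.00127). The others, 208687_x_at, 221891_x_at and 224187_x_at, differed from vehicle at 16 h by -0.02, 0.09 and 0.01 and did not pass (adjusted p = 0.859, 0.236 and 0.92). The arrays of 221891_x_at at 16 h still lay above all its vehicle arrays, with 13.09, 13.10 and 13.08 against 13.00, 12.95 and 13.04.

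The inducible pair HSPA1A and HSPA1B, outside the 10 genes, also had only joint probe sets, and these moved in opposite directions. At 16 h 200799_at read 9.44, 9.42 and 9.44, against 9.22, 9.19 and 9.27 on vehicle arrays, and rose (log2 change 0.21 ± 0.06 SE, adjusted p = 0.0174). The joint probe set 202581_at fell by 0.21 on the log2 scale (SE 0.07, adjusted p = 0.0241), and 200800_s_at, which the annotation also gives to HSPA1L, fell by 0.38 (SE 0.07, adjusted p = 0.00151). No direction for HSPA1A or HSPA1B can be given from these.

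The J-domain genes did not move together. DNAJB4, a partner of HSP70 in the cytosol, read 7.46, 7.63 and 7.72 on vehicle arrays, 8.14, 8.08 and 8.12 at 4 h, 7.52, 7.70 and 7.78 at 6 h and 8.62, 8.90 and 8.86 at 16 h. The 4 h and 16 h arrays lay above all vehicle arrays, whereas the 6 h arrays overlapped with them. DNAJB4 rose 2.28-fold at 16 h (log2 change 1.19 ± 0.10 SE, adjusted p = 2.37e-06), and its second probe set, 203811_s_at, rose by 0.63 ± 0.12 SE (adjusted p = 0.0016).

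DNAJB4 was also the only one of the 9 that passed at 4 h, when 0.459% of all genes did. The 4 h and vehicle arrays did not overlap for 2 of the 9, DNAJB4 and HSPA13, and for 18.3% of all genes. It rose 1.43-fold (log2 change 0.51 ± 0.10 SE, adjusted p = 0.0428). In the fit over probe sets it did not pass at 4 h (adjusted p = 0.0595), where none of the 21 tested did and 0.373% of all probe sets did. The call of DNAJB4 was lost without any single vehicle or 4 h array, with adjusted p between 0.0749 and 0.187, and without 4 of the 6 other arrays. At 6 h its difference from vehicle was 0.06 ± 0.10 SE (adjusted p = 0.915). The 6 h arrays lay below all 4 h arrays by a mean of 0.45, which did not pass over all genes (log2 change -0.45 ± 0.10 SE, adjusted p = 0.178).

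DNAJB1, the J-domain protein that works with HSP70 in heat-stressed cells, had probe sets that moved apart. Its brightest, 200666_s_at, read 8.87, 8.77 and 8.63 on vehicle arrays, 8.72, 8.70 and 8.69 at 4 h, 8.62, 8.55 and 8.55 at 6 h and 8.42, 8.47 and 8.51 at 16 h. The 16 h arrays lay below all others, and DNAJB1 fell 1.22-fold on it (log2 change -0.29 ± 0.07 SE, adjusted p = 0.00496). The dimmer 200664_s_at read 3.93, 4.31 and 4.31 on 16 h arrays, against 3.62, 3.84 and 3.77 on vehicle arrays, and rose (0.44 ± 0.10 SE, adjusted p = 0.0045). With the mean of both the 16 h difference was 0.08 (adjusted p = 0.36), so the direction of DNAJB1 depends on the probe set.

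The small heat shock genes also differed. HSPB8 read 5.85, 5.37 and 6.34 on vehicle arrays, 6.23, 6.08 and 6.00 at 4 h, 6.16, 6.06 and 6.06 at 6 h and 6.88, 7.07 and 7.14 at 16 h. The vehicle arrays spread over almost 1 unit, more than in any other group, and the 16 h arrays still lay above all of them. HSPB8 rose 2.25-fold at 16 h (log2 change 1.17 ± 0.18 SE, adjusted p = 0.000341). Its second probe set, 233057_at, was too dim for the test and read 2.56, 2.09 and 2.24 on 16 h arrays, against 2.11, 1.98 and 1.94 on vehicle arrays.

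HSPB1, which encodes the small heat shock protein HSP27, read 11.52, 11.34 and 11.39 on vehicle arrays, 11.51, 11.44 and 11.62 at 4 h, 11.65, 11.70 and 11.66 at 6 h and 11.26, 11.40 and 11.43 at 16 h. The 6 h arrays lay above all vehicle arrays and above all 16 h arrays. Against vehicle HSPB1 differed by 0.26 ± 0.07 SE at 6 h (adjusted p = 0.317) and by -0.05 ± 0.07 SE at 16 h (adjusted p = 0.589), and neither passed. The difference between 16 h and 6 h did pass (log2 change -0.31 ± 0.07 SE, adjusted p = 0.00488).

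The nucleotide exchange factor BAG3 rose 1.35-fold at 16 h (log2 change 0.43 ± 0.07 SE, adjusted p = 0.000475). Its single probe set read 8.69, 8.73 and 8.88 on vehicle arrays, 8.76, 8.88 and 8.84 at 4 h, 8.85, 8.79 and 8.92 at 6 h and 9.25, 9.13 and 9.22 at 16 h. The 16 h arrays lay above all others, and the earlier groups overlapped with vehicle.

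HSPH1, an HSP110 that serves as an exchange factor for HSP70, read 8.85, 9.02 and 8.94 on vehicle arrays, 9.13, 8.99 and 9.04 at 4 h, 8.91, 8.92 and 8.84 at 6 h and 9.23, 9.35 and 9.37 at 16 h on its brightest probe set, 206976_s_at. The 16 h arrays lay above all others and HSPH1 rose 1.30-fold (log2 change 0.38 ± 0.07 SE, adjusted p = 0.00103). Its probe set 208744_x_at fell, with 2.89, 2.87 and 2.97 on 16 h arrays, against 4.93, 3.39 and 4.58 on vehicle arrays (log2 change -1.39 ± 0.31 SE, adjusted p = 0.00335). This dim probe set was already low earlier, with 3.47, 2.98 and 3.24 at 4 h and 3.29, 2.98 and 2.73 at 6 h. Its vehicle arrays were widely spread (SD 0.81), and its difference between 16 h and 6 h was -0.09 and did not pass (limma adjusted p = 0.836). The third, 235573_at, differed from vehicle at 16 h by 0.25 ± 0.15 SE (adjusted p = 0.206). With the mean of the 3 probe sets the HSPH1 difference at 16 h was -0.255 (adjusted p = 0.0525), and with 235573_at alone, which is neither an _s_at nor an _x_at probe set, the call was lost (adjusted p = 0.204). Probe sets with those endings can bind several transcripts.

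HSP90AA1 also had probe sets that moved differently. Its brightest, 214328_s_at, read 12.63, 12.56 and 12.53 on vehicle arrays, 12.62, 12.63 and 12.64 at 4 h, 12.64, 12.61 and 12.63 at 6 h and 12.71, 12.68 and 12.74 at 16 h. The 16 h arrays lay just above all others, and the difference from vehicle did not pass (log2 change 0.14 ± 0.05 SE, adjusted p = 0.0579). The probe set 211968_s_at read 11.03, 10.46 and 10.70 on vehicle arrays, 10.46, 10.23 and 10.20 at 4 h, 10.31, 10.18 and 9.82 at 6 h and 9.72, 9.75 and 9.79 at 16 h.

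That probe set fell at 16 h (log2 change -0.98 ± 0.15 SE, adjusted p = 0.0003), and its 16 h arrays lay below all others. Its differences at 4 h and 6 h, -0.44 ± 0.15 SE and -0.63 ± 0.15 SE, did not pass (adjusted p = 0.259 and 0.0737). The probe set 211969_at, the only one for HSP90AA1 with neither ending, fell as well, with 11.98, 11.98 and 11.95 on 16 h arrays, against 12.62, 12.29 and 12.46 on vehicle arrays (-0.49 ± 0.09 SE, adjusted p = 0.00133). The fourth, 210211_s_at, differed by -0.06 ± 0.07 SE (adjusted p = 0.487).

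**Figure D2:**
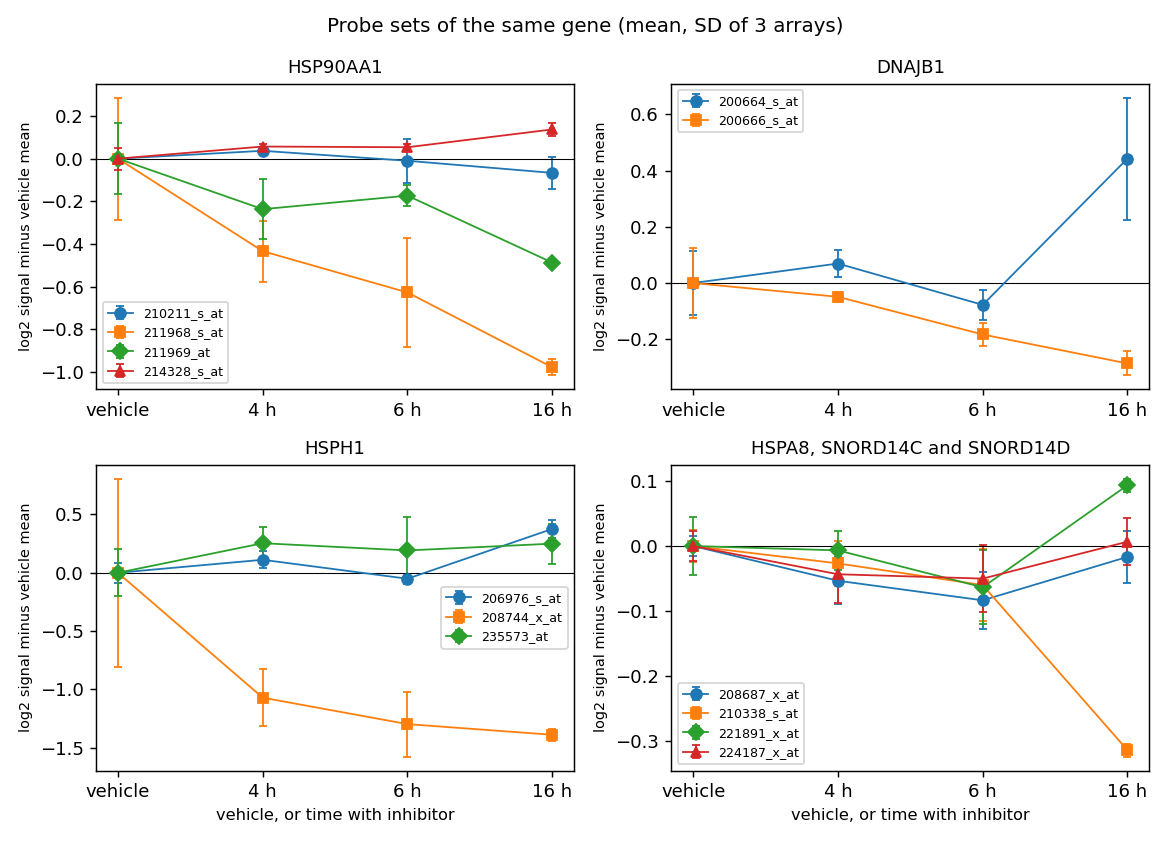
Log2 signal minus the vehicle mean of the same probe set (vertical axis) in the vehicle, 4 h, 6 h and 16 h groups (horizontal axis) for the probe sets of HSP90AA1, DNAJB1, HSPH1 and of HSPA8 with SNORD14C and SNORD14D. Points are means and bars SDs of 3 arrays. At 16 h the HSP90AA1 probe sets ranged from -0.98 to 0.14, and DNAJB1 and HSPH1 each had a probe set that rose and another that fell.

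Over all probe sets of the 10 genes, 21 of 23 could be tested. At 16 h 9 rose and 5 fell, against 23.4% and 18.1% of all 23839 probe sets. The 9 include 213418_at of HSPA6, which its 16 h arrays admitted to the fit. HSPA13 and DNAJB4 were the genes in which more than 1 probe set was tested and each rose.

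The RNA controls on the 16 h arrays differed from those on vehicle arrays. The log2 signal of the 5' ACTB control was 9.03 ± 0.13 on 16 h arrays and 10.41 ± 0.04 on vehicle arrays (SD, n = 3 each, exact two-sided permutation p = 0.1, the smallest that 3 against 3 can give). For ACTB the 3' signal exceeded the 5' signal by 4.09 ± 0.09 at 16 h and 2.80 ± 0.07 on vehicle arrays (exact permutation p = 0.1). For GAPDH the same difference was -0.43 ± 0.04 at 16 h and -0.46 ± 0.02 on vehicle arrays (SD, n = 3 each, exact permutation p = 0.3). The log2 signal of the 18S rRNA control was 11.06 ± 0.10 at 16 h and 9.62 ± 0.29 on vehicle arrays. At 4 h and 6 h it differed from vehicle by -0.64 and -0.98, and all 3 differences had an exact permutation p of 0.1. The part of RNA integrity, of these controls or of probe position in the disagreement between probe sets was not tested.

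All 7 measured prostate luminal markers were above the unspiked controls on all 12 arrays, with a summed log2 signal of 40.22 to 40.99 on 16 h arrays, against 43.12 to 43.72 on vehicle arrays. They did not move together at 16 h by limma. KLK2, HOXB13 and TMPRSS2 fell (log2 change -1.30, -1.06 and -0.50, adjusted p = 5.02e-05, 2.78e-06 and 0.00631). KRT18 rose (0.20, adjusted p = 0.0205), and KLK3, KRT8 and FOLH1 did not pass (-0.35, 0.02 and 0.18). Of the fibroblast markers, 3 of 6 were above these controls on all arrays. Their summed log2 signal was 19.11 to 19.72 on 16 h arrays, against 16.13 to 17.76 on vehicle arrays, and its members moved in both directions. COL1A1 (5.83 at 16 h and 3.77 on vehicle arrays) and LUM (5.35 and 4.10) rose, and DCN (2.85 and 3.44) and COL3A1 (2.06 and 2.43) fell, by limma with adjusted p of 1.04e-05, 0.000217, 0.0048 and 0.00648. COL1A2 and PDGFRB were above the controls on no array. Their levels are means of 3 arrays. None of 4 leukocyte markers and 1 of 4 endothelial markers was above the controls on all arrays, and VWF, KDR and CDH5 were above them on none. The part of these markers in the chaperone differences was not tested.

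**Figure D3:**
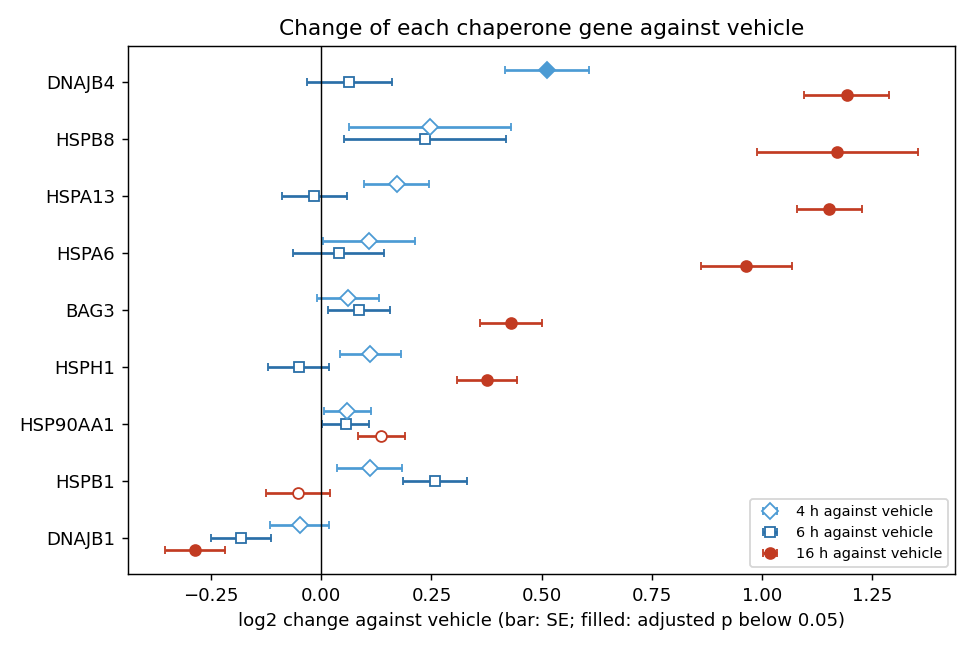
Log2 change against vehicle (horizontal axis) of 9 heat shock genes at 4 h, 6 h and 16 h on the brightest probe set. Bars are SEs from limma and filled points passed at an adjusted p below 0.05. At 16 h the changes ran from -0.29 for DNAJB1 to 1.19 for DNAJB4, and DNAJB4 was the only member that passed at 4 h.

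At 6 h none of the 9 members passed by limma, and 0.0317% of all genes did. At an unadjusted p below 0.05 there were 2, DNAJB1 with a log2 change of -0.18 and HSPB1 with 0.26, against 8.22% of all genes. With a trended and robust prior 1 passed, HSPB1 (adjusted p = 0.0239). The fit over probe sets passed none of the 21, against 0.818% of all probe sets. The 6 h and vehicle arrays did not overlap for the same 2 genes, and for 14.4% of all genes. The median log2 change of the 9 was 0.11 at 4 h and 0.06 at 6 h, against 0.0028 and 0.0123 over all genes.

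Between the times of treatment, the comparison of 6 h with 4 h passed no member by limma, against 0.095% of all genes. At an unadjusted p below 0.05 it gave 3 (DNAJB4, HSPA13 and HSPH1, all lower at 6 h), against 9.37% of all genes, and with a trended and robust prior 1, DNAJB4 (adjusted p = 0.0199). The arrays of these times did not overlap for 5 members and for 19.4% of all genes. At 16 h against 6 h, 7 members changed, as did 42.7% of all genes. Of these 6 rose, with HSPA6, admitted by its 16 h arrays, among them, and 1 fell, with 25.1% and 17.6% of all genes doing so. The arrays did not overlap for any of the 9, and for 52.3% of all genes. HSPA13 rose by 1.17 ± 0.07 SE (adjusted p = 3.82e-07), DNAJB4 by 1.13 ± 0.10 SE (adjusted p = 3.95e-06) and HSPB8 by 0.94 ± 0.18 SE (adjusted p = 0.00155) on the log2 scale. The gene that fell was HSPB1. At 16 h against 4 h, 7 changed, as did 40.9% of all genes. Here too 6 rose with HSPA6 among them and 1 fell, with 24.8% and 16.1% of all genes, and the gene that fell was DNAJB1. The arrays did not overlap for any of the 9, and for 52% of all genes. These comparisons share the 16 h arrays with the comparison against vehicle, and the 3 comparisons with vehicle share the vehicle arrays.

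A wider list of 70 chaperone genes outside the set, grouped by role, had 65 genes with a probe set of their own and 56 that were tested. At 16 h 20 rose, 5 fell and 31 did not pass, so 25 of 56 changed, a share near the 42.8% of all genes. The median log2 change of the 56 was 0.10, against 0.046 over all genes. At 4 h and 6 h 0 of the 56 passed by limma, and 5 at each time had an unadjusted p below 0.05, as did 10.8% of all genes at 4 h and 8.22% at 6 h.

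HSF1 itself had a dim signal, with 3.27, 3.36 and 3.51 on 16 h arrays, against 3.14, 3.12 and 3.32 on vehicle arrays, and did not pass (log2 change 0.19 ± 0.08 SE, adjusted p = 0.0772). Of 6 further HSP70 and HSP110 genes, HSPA4, an HSP110, rose by 0.28 ± 0.06 SE (adjusted p = 0.00462). Of 12 further J-domain genes 7 rose and 1 fell, against 26% and 16.8% of all genes. DNAJB2 rose by 0.70 ± 0.11 SE, DNAJB6 by 0.60 ± 0.16 SE, DNAJA4 by 0.38 ± 0.11 SE and DNAJA2 by 0.33 ± 0.08 SE, and DNAJC9, named after its value was seen, fell by 0.30 (SE 0.06). DNAJB2 and DNAJB6 are known to hold back the aggregation of polyglutamine proteins.

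HSPB6, a small heat shock protein best known from muscle, was the only one of 7 further small heat shock genes bright enough to be tested. It read 5.88, 6.12 and 6.19 on 16 h arrays, against 7.71, 7.69 and 7.58 on vehicle arrays. The groups lay far apart, and HSPB6 fell 3.03-fold (log2 change -1.60 ± 0.08 SE, adjusted p = 7.15e-08), a change opposite in sign to that of HSPB8.

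Among 13 tested HSP90 partners and co-chaperones 5 rose and 2 fell, against 26% and 16.8% of all genes. HSP90AB1, the HSP90 that is made without stress, read 11.49, 11.47 and 11.63 at 16 h, against 11.51, 11.57 and 11.42 on vehicle arrays, and did not pass (log2 change 0.03 ± 0.07 SE, adjusted p = 0.742). The largest change was in FKBP5, a co-chaperone of steroid receptors and a known androgen-induced gene, which fell 1.87-fold (-0.90 ± 0.06 SE, adjusted p = 3.09e-07). CHORDC1 rose by 0.51 ± 0.08 SE, FKBP4 by 0.33 ± 0.08 SE and UNC45A by 0.29 ± 0.09 SE. The other gene that fell was STUB1, a ubiquitin ligase that binds HSP70 and HSP90, by 0.25 (SE 0.06), also named after its value was seen. Of 7 further nucleotide exchange factor genes BAG2 rose, by 0.57 ± 0.08 SE (adjusted p = 0.00022), and 6 did not pass.

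**Figure D4:**
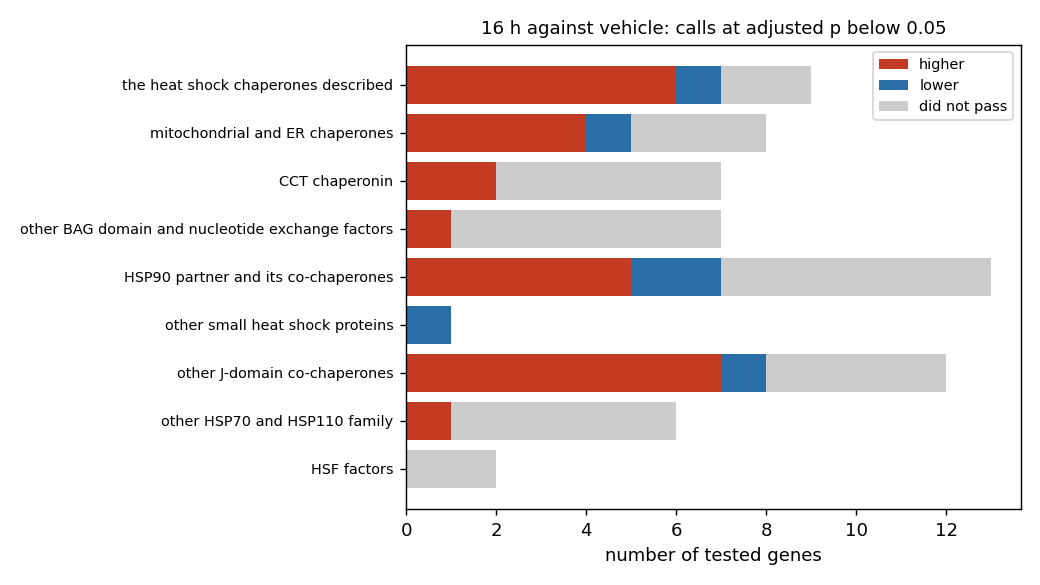
Number of tested genes (horizontal axis) that were higher, lower or did not pass at 16 h against vehicle by limma, for the 9 tested heat shock genes described here and for 8 lists of other chaperone genes. The 9 genes had 6 higher, among them HSPA6, admitted by its 16 h arrays, and 1 lower. Over all genes 26% were higher and 16.8% lower. The 8 lists together had 20 higher and 5 lower of 56, with 7 and 1 of 12 among the further J-domain genes.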

How the data were processed

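RNA from 22Rv1 cells was amplified with a 3' IVT kit and hybridised to Affymetrix U133 Plus 2.0 arrays, per the labels' protocols. Each of 12 arrays has 54675 probe sets with log2 values as the authors deposited them, which the submitters' processing notes credit to GCRMA (version and genome build not given in the sources used here). The values ran from -0.49 to 13.77, with array medians of 2.1 to 2.15, and a shift common to most genes could not be seen after such normalisation. The number of arrays limits the precision.

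Symbols came from the platform annotation, updated through Entrez identifiers. Of the probe sets, 41097 had 1 symbol, 1801 several, and 11777 were not listed, and 62 controls were set aside. Genes (12635) and probe sets (23839, with 1 symbol or more) with a mean of at least 2.11 were fitted with limma 3.58.1 in R 4.3.3, with 4 groups and 8 residual degrees of freedom, and adjusted by the Benjamini-Hochberg method. The fit was tested on simulated data. A fold is at least the ratio to the highest of 27 unspiked control probe sets where all arrays of a group lay at or below it. The members and lists were chosen with earlier results of these data known. All members are named, and of each wider list up to 4 changed genes with the largest changes at 16 h whose arrays do not overlap, with HSF1, HSPA1A, HSPA1B and HSP90AB1 in every case. Replicate numbers were not used as a block, since the labels do not say what they share. Promoters came from RefSeq on GRCh38.p14. Alternatives were other normalisations, filters, probe set rules, designs and priors, and each array left out.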

Additional observations from a re-analysis of the deposited data

Results flagged for a closer look

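Changes that differ between treatment times were sought by the limma test of the difference between times, on the log2 scale. Benjamini-Hochberg adjustment ran over all 12635 genes. The 14 cases that passed include those of HSPA6, which are given last and set apart. Over all genes 42.7% passed at 16 h against 6 h and 40.9% at 16 h against 4 h. The members were chosen with earlier results known, so the cases only describe the set. Of 16 h against 6 h, HSPA13 differed by 1.17 (adjusted p = 3.82e-07), DNAJB4 by 1.13 (adjusted p = 3.95e-06), HSPB8 by 0.94 (adjusted p = 0.00155), HSPH1 by 0.43 (adjusted p = 0.000444), BAG3 by 0.35 (adjusted p = 0.00208) and HSPB1 by -0.31 (adjusted p = 0.00488). Of 16 h against 4 h, HSPA13 differed by 0.98 (adjusted p = 1.65e-06), HSPB8 by 0.92 (adjusted p = 0.00184), DNAJB4 by 0.68 (adjusted p = 0.000197), BAG3 by 0.37 (adjusted p = 0.00146), HSPH1 by 0.26 (adjusted p = 0.00956) and DNAJB1 by -0.24 (adjusted p = 0.0152). All are values of the brightest probe set. In the limma fit over probe sets, 200664_s_at of DNAJB1 was higher at 16 h than at 4 h by 0.37 (adjusted p = 0.0132). The HSPH1 probe sets 208744_x_at and 235573_at differed by -0.32 and -0.0036 at 16 h against 4 h and by -0.09 and 0.06 at 16 h against 6 h. None of these HSPH1 differences passed. HSPA6 differed by 0.93 at 16 h against 6 h and by 0.86 at 16 h against 4 h, but it passed the filter on dim genes only through its 16 h arrays, so its p-values are not given and these sizes support nothing. In each of the 14 cases, those of HSPA6 included, the arrays of the 2 groups did not overlap, for 3 against 3 arrays. The same held for 52.3% of all genes in the first comparison and 52% in the second.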

How the results depend on the processing

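The count of members that changed was 1 at 4 h against vehicle and became 0 with median centring, with no filter and with only the 2 groups compared, and ranged from 0 to 1 with each array left out. It was 0 at 6 h against vehicle and 0 at 6 h against 4 h, and 1 in both with a trended and robust prior (0 to 0 with each array left out). At 16 h it was 7 against vehicle, 4 h and 6 h, with HSPA6, admitted by its 16 h arrays, among them each time. With each array left out it was 7 to 8, 7 to 7 and 7 to 7. Averaging probe sets per gene gave 5 at 16 h against vehicle, with HSP90AA1 lower and without HSPH1 and DNAJB1. HSPA6 could not be tested that way or with the 75th percentile filter. HSPB8 could not be tested where probe sets outside _s_at and _x_at were preferred. That rule gave 6 members at 16 h against vehicle, 4 higher, with HSPA6 among them, and 2 lower, and 4891 genes in all. HSP90AA1 was called at 16 h in 6 of 22 alternatives. It was higher with quantile normalisation (0.218, adjusted p = 0.00446), the 75th percentile filter (adjusted p = 0.0255), the trended and robust prior (adjusted p = 0.000784) and without vehicle replicate 1 (adjusted p = 0.0474), and lower under the 2 other probe set rules. With the replicate number as a replicate block the counts were 1, 0 and 7 against vehicle, and the count over all genes at 4 h was 84, against 58 without the block. Genes called in all ranged from 25 to 136 at 4 h, from 0 to 79 at 6 h (4 as reported) and from 0 to 59 at 6 h against 4 h (12 as reported). Deviations from group means correlated at -0.00455 to 0.235 (mean 0.0886) over 18 same-numbered pairs of arrays and at -0.187 to 0.13 (mean -0.0439) over 36 other pairs, and 7 of 12 arrays correlated best with their own number, so the data do not settle whether the numbers pair the arrays.

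Directions turned mostly with the probe set rule. With the mean of probe sets, HSPH1 gave -0.236 at 4 h, -0.255 at 16 h against vehicle and -0.0192 at 16 h against 4 h. DNAJB1 gave 0.00998 at 4 h, 0.0782 at 16 h against vehicle, 0.0682 at 16 h against 4 h and 0.208 at 16 h against 6 h. HSP90AA1 gave -0.14 at 4 h, -0.19 at 6 h, -0.35 at 16 h against vehicle, -0.21 at 16 h against 4 h and -0.16 at 16 h against 6 h. HSPA13 gave 0.0292 and DNAJB4 -0.0333 at 6 h. Without _s_at and _x_at probe sets, HSP90AA1 gave -0.24, -0.17 and -0.49 at 4 h, 6 h and 16 h against vehicle, -0.25 at 16 h against 4 h, -0.32 at 16 h against 6 h and 0.066 at 6 h against 4 h, and HSPH1 gave 0.19 at 6 h and -0.0036 at 16 h against 4 h. Changes near 0 also turned for HSPA13 at 6 h (0.000675) and HSPB8 at 6 h against 4 h (0.00703) with quantile normalisation, and for BAG3 at 6 h against 4 h (-0.00121) with array weights. With each array left out, values crossed 0 for DNAJB1 at 4 h (-0.113 to 0.00945), at 6 h for HSPA6 (-0.0195 to 0.0962), HSPA13 (-0.0556 to 0.0299), HSPB8 (-0.00698 to 0.479) and DNAJB4 (-0.00833 to 0.136), and at 6 h against 4 h for HSPB8 (-0.0613 to 0.0513), HSP90AA1 (-0.012 to 0.004) and BAG3 (-0.00842 to 0.0579). The cause was not tested, beyond the choice of probe set. Signals near the unspiked controls, as for HSPA6, limit what small changes can be seen.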

Other observations

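Chaperones of other compartments were measured on the same arrays. Of 8 mitochondrial and endoplasmic reticulum chaperone genes 4 rose and 1 fell at 16 h by limma, against 26% and 16.8% of all genes, and 3 did not pass. HSPA9, the mitochondrial HSP70, read 11.62, 11.67 and 11.65 on 16 h arrays, against a mean of 11.04 on vehicle arrays, and rose by 0.61 ± 0.06 SE on the log2 scale (adjusted p = 1.01e-05, higher in 3 of 3 arrays). HSPA5, the HSP70 of the endoplasmic reticulum, read 11.57, 11.56 and 11.66 on vehicle arrays, 11.37, 11.42 and 11.42 at 4 h, 11.22, 11.10 and 11.17 at 6 h and 12.09, 11.98 and 12.27 at 16 h. The 4 h and 6 h arrays lay below all vehicle arrays and the 16 h arrays above them, and of these differences from vehicle that at 16 h passed (0.52 ± 0.08 SE, adjusted p = 0.000233). HSP90B1 fell on its brightest probe set, an _x_at one, by 0.85 (SE 0.16, adjusted p = 0.00141), with 9.40, 9.39 and 9.25 on 16 h arrays and 10.46, 9.89 and 10.21 on vehicle arrays. Its 4 h and 6 h arrays also lay below all vehicle arrays, by means of 0.57 and 0.74 that did not pass (adjusted p = 0.212 and 0.219). The 16 h arrays differed from the 6 h arrays by -0.10 (adjusted p = 0.646). SERPINH1, a collagen chaperone, rose by 0.74 ± 0.15 SE from a dim signal of 2.45 (adjusted p = 0.00211). Of 7 subunit genes of the CCT chaperonin, which folds actin and tubulin, CCT4 and CCT3 rose by 0.32 ± 0.06 SE and 0.26 ± 0.06 SE, and 5 did not pass.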
